A study of Mus musculus with 5 samples.

Results

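In mouse testis, 1428 expressed transcripts carried no chromatin immunoprecipitation (ChIP) score of any kind, neither for TAF7L nor for RNA polymerase II (Pol II). They were chosen on measured values: all 6 score columns of the binding table (TAF7L and Pol II, each in a promoter, a proximal and a distal class) had to be 0, and the wild-type RNA signal of the same transcript had to be at least 1. They made up 5.26% of the 27170 transcripts that reached this signal, out of 55350 transcripts listed in both tables. The other 25742 expressed transcripts had at least 1 score and are called scored below. Of 10772 transcripts without any score, 13.3% were expressed, against 57.7% of the 44578 scored ones.

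The study asked where TAF7L and Pol II bind in testis and which RNAs differ when Taf7l is absent. Testes of 3-month-old mice gave 5 libraries with 1 library per group. RNA of wild-type males and of Taf7l-/Y males, which lack the X-linked gene Taf7l, was pooled from 6 extracts per genotype, and polyadenylated RNA was sequenced to between 100 and 200 M reads per library. Chromatin pooled from 10 mice, labelled wild type, was precipitated with antibodies to TAF7L or Pol II, or with mixed mouse and rabbit IgG as the control. The protocol shared by the ChIP samples speaks of chromatin from both genotypes, so the genotype behind the scores rests on the sample labels alone. No strain is named in the labels. With pooled RNA and 1 library per genotype there is no replicate spread and no test across samples, so changes below are described by size. Values after ± are the standard deviations deposited with each signal, read here as the spread over parts of 1 library, since the header does not name their units. A change is log2((knockout + 1)/(wild type + 1)), and a transcript is called higher or lower when it differs by at least 2-fold. In bulk testis, fewer cells of a type and less RNA per cell cannot be told apart.

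As background, transcription of a protein-coding gene needs Pol II at its start, placed there by general factors such as TFIID, and TAF7L is a germ-cell paralogue of the TFIID subunit TAF7. The germ cells of the testis pass from dividing spermatogonia through meiosis to round spermatids, which reshape into sperm. The X chromosome is silenced during meiosis and again transcribed in part in spermatids, and it carries many gene families in near-identical copies that are expressed at that stage. A score of 0 is read here as no signal assigned to that transcript, since the sources used here do not define the scores. It does not show that Pol II was absent. Nor do they say how reads that match several copies were assigned.

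Taf7l itself, the gene removed, stood at 13.2 in wild-type testis and at 2.04 in the library labelled knockout, a change of -2.22. Below, a pair of signals gives the wild type first and the knockout second. Testis markers were present in both libraries. The protamine gene Prm1, which packs sperm DNA, had signals of 17005 and 2991, and the meiotic gene Sycp3 had 24.2 and 43.4. Across all expressed transcripts the median change was 0.33, so counts are also given with the knockout rescaled to a median change of 0.

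Genes with near-identical upstream stretches stood on both sides of the rule. The histone variants of the H2A.L family, which replace canonical H2A late in spermatid development, have their X-linked genes at several places. The stretches below are 100 bases long and lie upstream of each annotated start, 5′ to 3′, from RefSeq windows of GRCm38.p6. They are aligned on a run of letters that the copies share, not on the starts. Their first base lies between positions -168 (H2al1o) and -114 (H2al1k), and their first letters match by construction. Capitals mark the 7 positions at which the copies differ. The stretches are shown because the first 5 genes had no score while H2al1m had a Pol II score. That score, 276, was in the distal class, and the promoter scores of H2al1m were 0 too.
H2al1e: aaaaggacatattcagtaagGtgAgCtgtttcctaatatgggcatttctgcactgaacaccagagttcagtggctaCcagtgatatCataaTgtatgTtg
H2al1n: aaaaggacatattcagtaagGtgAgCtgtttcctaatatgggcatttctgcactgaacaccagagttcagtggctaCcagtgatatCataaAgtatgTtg
H2al1a: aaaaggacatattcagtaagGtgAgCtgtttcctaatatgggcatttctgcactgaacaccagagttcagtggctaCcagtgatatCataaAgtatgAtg
H2al1k: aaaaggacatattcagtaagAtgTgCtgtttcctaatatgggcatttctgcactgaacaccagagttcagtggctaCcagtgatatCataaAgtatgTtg
H2al1o: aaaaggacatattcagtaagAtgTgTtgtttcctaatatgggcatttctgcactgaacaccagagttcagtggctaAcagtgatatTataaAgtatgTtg
H2al1m: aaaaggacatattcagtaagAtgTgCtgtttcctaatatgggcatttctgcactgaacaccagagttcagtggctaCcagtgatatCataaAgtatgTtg

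In GRCm38.p6 these stretches lie at chrX:11311780-11311879 for H2al1e, chrX:14210998-14211097 for H2al1n, chrX:11299110-11299209 for H2al1a and chrX:9350485-9350584 for H2al1k, all on the plus strand. H2al1o lies at chrX:9572460-9572559 on the minus strand, and H2al1m at chrX:9283648-9283747 on the plus strand. The stretch of the unscored H2al1k had 0 differences from that of the scored H2al1m. Those of H2al1n, H2al1a, H2al1e and H2al1o had 2, 3, 3 and 3 differences from it.

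Upstream sequences of single genes without a score are shown next. The 100 bases before the start are shown for 6 genes whose RNA is described below, from the same RefSeq build, with the letters TGATGTCA in capitals where either strand holds them. This motif was picked after windows had been read.
Fscb: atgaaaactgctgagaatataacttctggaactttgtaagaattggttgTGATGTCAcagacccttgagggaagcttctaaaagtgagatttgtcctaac
Gm5941: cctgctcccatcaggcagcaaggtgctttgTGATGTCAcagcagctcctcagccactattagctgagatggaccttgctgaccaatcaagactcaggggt
Rnf148: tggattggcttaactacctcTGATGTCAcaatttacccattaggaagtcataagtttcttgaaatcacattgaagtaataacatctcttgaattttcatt
Cylc1: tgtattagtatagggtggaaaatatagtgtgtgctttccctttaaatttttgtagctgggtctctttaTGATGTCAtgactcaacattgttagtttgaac
Rnf133: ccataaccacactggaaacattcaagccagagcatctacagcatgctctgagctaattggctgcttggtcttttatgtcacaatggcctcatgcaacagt
Col6a1: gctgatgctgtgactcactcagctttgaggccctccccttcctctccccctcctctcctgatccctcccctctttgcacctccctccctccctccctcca

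These stretches are chr12:64474899-64474998 (Fscb, minus strand), chrX:92489849-92489948 (Gm5941, plus), chr6:23655137-23655236 (Rnf148, minus), chrX:111110318-111110417 (Cylc1, plus), chr6:23650306-23650405 (Rnf133, minus) and chr10:76726045-76726144 (Col6a1, minus). TGATGTCA, read on both strands (TGACATCA on the other), stood in 1016 of 27025 windows of 300 bases, 1 per gene, or 3.76% of them. It starts 51, 70, 80 and 32 bases before the start in Fscb, Gm5941, Rnf148 and Cylc1. It does not overlap the related letters TGACGTCA, which 1.88% of windows held. GC content of the 300-base windows was 35.0% in Fscb, 30.7% in Rnf148, 31.0% in Cylc1, 36.3% in Rnf133, 49.7% in Gm5941 and 57.3% in Col6a1, where all windows had a median of 52.7%. Windows were at hand for 323 of the 437 genes that were matched to RefSeq and had only unscored transcripts, 73.9%, which is under the 80% needed, so a comparison of base composition or motifs over these genes is void and is not given.

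Unscored transcripts were expressed at moderate levels. Their wild-type signal had a median of 3.60 (quartiles 1.76 and 9.61), and their knockout signal a median of 3.42, against 5.56 and 7.04 for scored transcripts. The knockout signal was at least 1 in 1241 of them (86.9%). Just inside the signal limit stood Frmd4b at 1, Rbmy1a1 at 1.00 and 4930515G16Rik at 1.00, and just outside it Gzmg at 0.995, Herc1 at 0.993 and Gm5088 at 0.992. On the side of the scores, the expressed transcripts nearest to the rule were Ints6 with a highest score of 0.256 and Osr1 with 0.339. The ratio of the spread over parts of a library to the mean had a median of 0.191 in unscored and 0.132 in scored transcripts, so single values are less precise here.

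Unscored transcripts fell into groups by how they are placed in the annotation, a grouping made after values were seen. A first group of 608 (42.6%) stood alone, overlapping no scored transcript. Another 400 (28.0%) overlapped a scored transcript of the same gene and are alternative isoforms. A further 215 (15.1%) belonged to a name or a pair of signals listed at several positions, 117 (8.19%) lay over a scored gene of another name, and 88 (6.16%) spanned under 200 bp. Several positions of 1 name were found for 17.4% of unscored and 1.86% of scored transcripts. Gene models named Gm and a number made up 12.3% of the unscored and 0.921% of the scored. Of 819 gene names, clone names left out, 484 had only unscored transcripts and 335 had another transcript with a score.

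The share without a score was highest on the sex chromosomes. On X, 228 of 766 expressed transcripts (29.8%) had no score, and on Y 6 of 13 did, against 1194 of 26381 (4.53%) on the autosomes. Among autosomes the share ran from 2.24% on chromosome 11 to 8.70% on chromosome 14. X held 16.0% of the unscored transcripts and 2.09% of the scored ones. The plot by chromosome shows this.

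**Figure D1:**
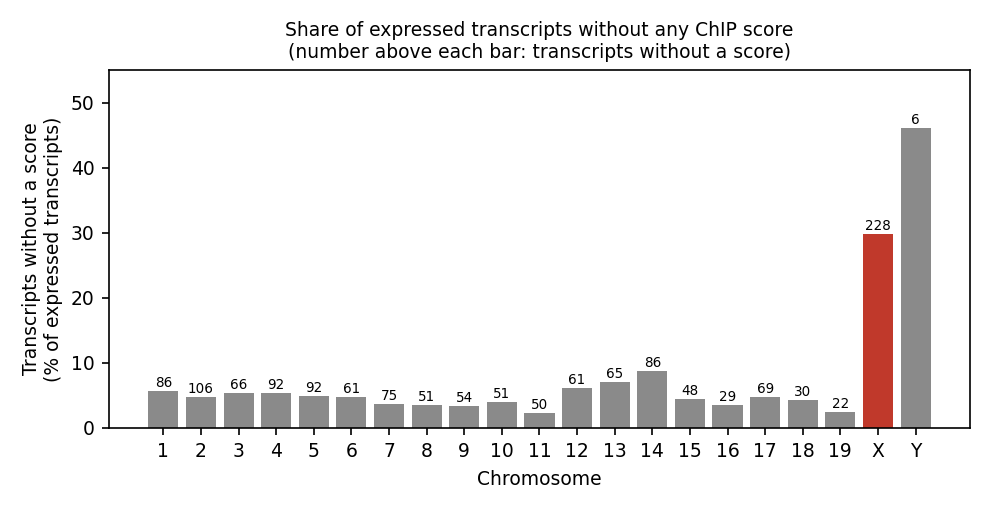
Percent of expressed transcripts (wild-type signal of at least 1) without any ChIP score on each chromosome, with their number above each bar. X stands at 29.8% with 228 transcripts and Y at 46.2% with 6, and no autosome is above 8.70%.

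The share on X was above that elsewhere at every level of expression. In the 6 bins of wild-type signal it lay between 24.4% (signal 1 to 2) and 40.2% (5 to 10), and outside X between 2.73% (50 to 100) and 6.74% (1 to 2). Above a signal of 100, 7 of 22 X-linked transcripts had no score (31.8%), against 4.34% of 1453 elsewhere. No bin outside X reached the lowest share on X.

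**Figure D2:**
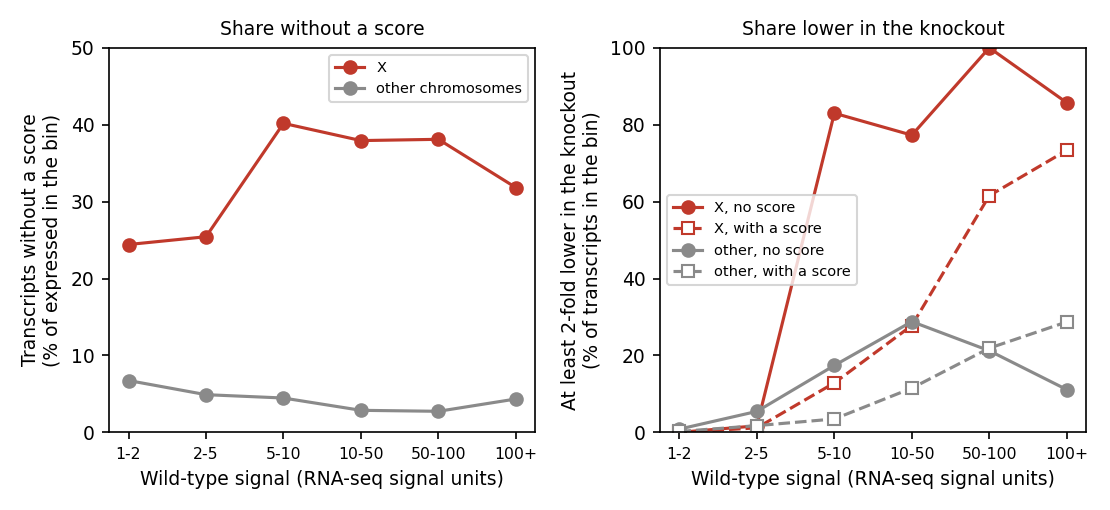
Left: percent of expressed transcripts without a ChIP score by bin of wild-type signal, on X and on other chromosomes. Right: percent of transcripts at least 2-fold lower in the knockout in the same bins, with and without a score. The pseudocount of 1 holds this percent down in the lowest bins. Copies listed at several positions are counted separately. The X share without a score is 24.4% to 40.2% in all bins, and in the bin of 5 to 10 the share lower is 83.0% for X transcripts without a score and 12.9% for X transcripts with one.

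Between genotypes, unscored transcripts were centred lower than scored ones. Their median change was -0.03, against 0.34 in scored transcripts. The change shares its wild-type values with the rule, so it is given as a description. The sign of the median depended on that choice: among the 1553 unscored transcripts with a knockout signal of at least 1 it was 0.33, with 195 lower and 137 higher, and among the 1531 with a mean of both signals of at least 1 it was 0.20. Of the 1428, 215 (15.1%) were at least 2-fold lower, where 7.17% of all expressed transcripts were, and 89 (6.23%) were at least 2-fold higher, where 5.30% were. The share higher is near the background. With the knockout rescaled to a median change of 0, 312 (21.8%) were lower and 25 (1.75%) higher, where 11.5% and 0.891% of all expressed transcripts were. This rescaling multiplied the knockout by 0.757, and the other one, to the wild-type total, by 0.794. Both factors are below 1, so all 215 had to remain lower, and that is no check on them. Of the 89, 25 remained higher under both rescalings.

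X-linked transcripts without a score stood lowest. Their median change was -0.68, with 88 of 228 (38.6%) lower and 5 (2.19%) higher. Of all X-linked expressed transcripts, 18.0% were lower and 9.79% higher. Among the 71 unscored ones listed at several positions, whose copies can share reads, 46 (64.8%) were lower, where 56.0% of all 84 such were. Among the 134 standing alone, which are unscored by definition, 39 (29.1%) were lower. X-linked scored transcripts had a median change of 0.52, with 50 of 538 (9.29%) lower and 70 (13.0%) higher. After rescaling, the unscored X transcripts had a median of -0.87 with 105 lower and 0 higher, where 23.1% and 1.04% of all X-linked ones were, and the scored X transcripts 0.23 with 72 lower and 8 higher. Outside X, 127 of 1200 unscored transcripts (10.6%) were lower and 84 (7.0%) higher, where 6.86% and 5.17% of all such expressed transcripts were. After rescaling, 207 of them were lower and 25 higher, where 11.2% and 0.886% of all such transcripts were.

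**Figure D3:**
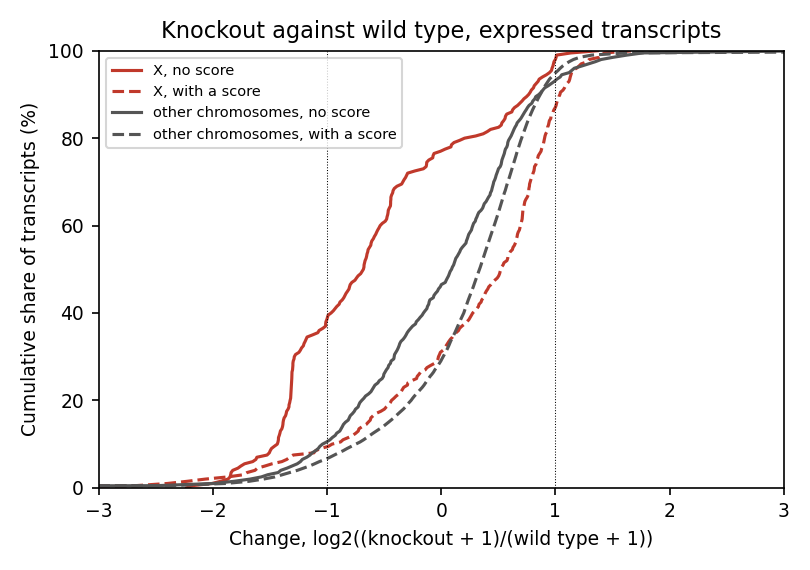
Cumulative percent of transcripts against the change between genotypes, for transcripts with and without a ChIP score, on X and on other chromosomes. Dotted lines mark 2-fold. The curve of X transcripts without a score has its median at -0.68, and that of X transcripts with a score at 0.52.

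The difference between unscored and scored X transcripts narrowed among the most abundant. At a wild-type signal of 5 to 10, 39 of 47 unscored X transcripts were lower (83.0%), and 12.9% of the scored ones. Copies of 1 name are counted separately here, among them those of Gm14819 and Gm10488, whose listings had near-equal signals and changes. Above 100, 6 of 7 unscored (85.7%) and 73.3% of the scored X transcripts were lower, with medians of -1.79 and -1.73. The plot of both signals shows the low X transcripts as a band under the line of equal signal.

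**Figure D4:**
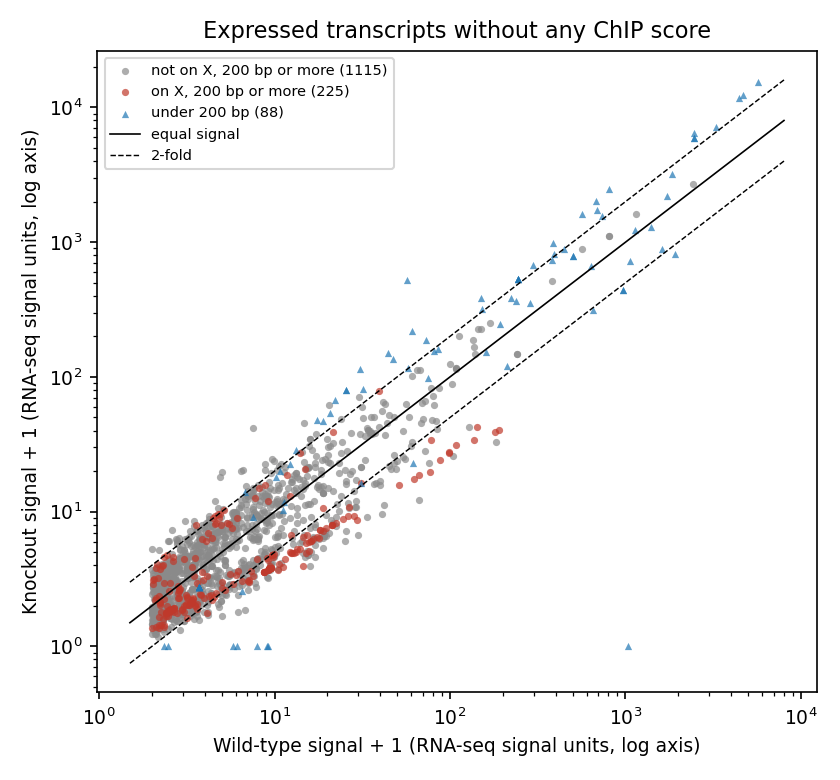
Knockout against wild-type signal, each plus 1, on log axes, for the 1428 expressed transcripts without a ChIP score. Points are transcripts, coloured by chromosome and span, the solid line is equal signal and dashed lines are 2-fold. Of the 225 X transcripts of 200 bp or more, most above a signal of 5 lie below the lower dashed line.

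Markers of germ and somatic cells moved between the 2 libraries as well. The 12 spermatid chromatin genes summed to 63570 and 11845, 9 of 12 being lower. The 22 listed sperm tail genes summed to 10720 and 4625, with 12 lower. The 24 acrosome and sperm surface genes summed to 3265 and 2547, with 7 lower and 2 higher. Earlier germ cells went the other way in sum. The 21 spermatogonia genes summed to 442 and 557, with 4 higher, and the 22 of meiotic prophase to 963 and 1101, with 1 lower and 3 higher. Somatic lists went both ways in sum. The 21 Leydig genes summed to 2529 and 2030, with 1 lower and 5 higher. The 29 Sertoli genes summed to 2103 and 4069, with 13 higher, and the 16 matrix genes to 153 and 439, with 11 higher. The 19 macrophage genes summed to 90.7 and 319, with 6 higher, and the 11 genes of endothelium and blood to 57.9 and 136, with 2 higher. The 11 peritubular and smooth muscle genes summed to 398 and 456, with 1 lower and 4 higher. The 28 epididymis genes summed to 263 and 372, with 1 lower and 9 higher. Apart from Lcn10 and Spag11b of the epididymis list, none of these markers was at 0 in both libraries. Their part in the changes below was not tested.

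Spermatid histone variants were among the X-linked genes, grouped as a family after their values were seen, as were the other families below. Of 10 expressed H2A.L transcripts, 7 had no score. H2al1e (listed as Gm14484, chromosome X, 10889060 to 10889553, mm9) had signals of 86.2 and 23.3, a change of -1.85. H2al1n (Gm5382, X, 13788274 to 13788783) had 76.1 and 18.8, a change of -1.97. H2al1a (Gm14483) had 65.4 and 17.7, H2al1k (Gm14501) 61.5 and 16.4, and H2al1o (Gm5132) 14.8 and 4.13. All 5 were at least 2-fold lower in the knockout.

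The scored relatives had the same direction. H2al1m (1700012L04Rik), whose upstream stretch printed above equals that of H2al1k, had 65.1 and 17.0 and a single score, 276 for Pol II in the distal class. The family member H2afb1 on chromosome 2 (17918049 to 17918573) had 515 and 159, with a Pol II promoter score of 99.6. H2al3 (4930557A04Rik) had 84.5 and 17.6, with a Pol II promoter score of 49.1. No TAF7L score was assigned to any of the 10. On Y, both listings of H2al2c (Gm6026) had 18.2 and 5.6 with equal signals, so they cannot be told apart. H2ab1 (Gm14920), an H2A variant of the related H2A.B type on X, had 14.4 and 5.67 with no score. No transcript of the 12 listed spermatid chromatin genes and none of the 74 transcripts with a histone gene name was unscored. The 7 unscored H2A.L transcripts are listed under Gm names and are in neither list.

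The mouse X carries ampliconic families, gene families in large repeats, and these filled the longest runs. Of 1340 unscored transcripts of 200 bp or more, 888 stood next to another one in order of listed start, with no scored expressed transcript starting between, in 280 runs. Isoforms of 1 gene count as neighbours, and a scored transcript that starts earlier can overlap a run. The runs are therefore not all stretches free of scores, and no like count over all expressed transcripts was made. There were 19 runs of at least 5 separate spans with 210 transcripts, and 10 of them, with 112, lay on X. The longest covered 26 spans and 40 transcripts between 23469850 and 31877469 on X (mm9), with Slx, Gm14819, Gm10488 and Gm1993. Its wild-type signals ran from 1.36 to 16.6, its median change was -1.31, and 30 of the 40 were lower and 0 higher.

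Slx and Slxl1, proteins of spermatids encoded in many X copies, gave like values. Slx (X, 25949783 to 25972691) had 6.11 and 2.11, a change of -1.19. Slxl1 (X, 52480053 to 52496913) had 18.8 and 6.59, a change of -1.38. The run that holds Slxl1 and the copies of Gm16405 had 14 transcripts, of which 12 were lower and 0 higher, with a median of -1.39. Copies so alike share reads, and their single values are uncertain.

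Other X families had smaller computed changes or a split. Samt genes, which encode spermatogenesis-associated membrane proteins, had 7 of 7 expressed transcripts unscored, with signals from 1.97 to 8.97 in the wild type, and Samt1b (4921511M17Rik) had 8.97 and 3.87 at its highest copy. Ssx genes, the mouse counterparts of a human cancer-testis antigen family, had 15 expressed X-linked transcripts, of which 13 were unscored and the 2 of Ssxb3 had a score. Ssxb2 stood highest with 4.03 and 2.03, a change of -0.73, and none of them passed 2-fold by this measure. The pseudocount of 1 shrinks changes at such low signals, so smaller changes here do not show a weaker difference. Ssxa1, for example, had 2.18 and 0.636, a change of -0.96. The fixed list of X-linked multicopy germ cell families had 19 of 38 expressed transcripts unscored, with a median change of -0.64, 7 lower and 1 higher. Its 19 scored transcripts had a median of 0.70, with 4 lower and 1 higher.

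Mageb genes, whose proteins work with ubiquitin ligases, did not move together. Mageb5 (X, 89024947 to 89028315) was lower, with signals of 11.2 and 4.01. Mageb4 had 2.55 and 6.91, and Mageb16 had 4.13 and 9.31, both just past 2-fold higher, and under 2-fold after rescaling (0.81 and 0.65). With Capn6, 2900062L11Rik and the hairpin Mir1906-1 they were the only unscored X transcripts called higher.

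Families with members on X and on autosomes had scores on only some genes. Cylicin genes encode proteins of the sperm head cytoskeleton. Cylc1 on X (108305757 to 108319213) had 28.4 and 7.71, a change of -1.76, and no score, while Cylc2 on chromosome 4 had 80.9 and 23.5 with a Pol II promoter score of 42.8. Actrt1, an actin-related protein gene of the sperm head on X (43682184 to 43683522), had 14.1 and 3.92, a change of -1.62, and no score. Its relative Actrt2 on chromosome 4 had 388 and 120, with a Pol II promoter score of 349. Cypt genes, for basic proteins of the spermatid head, had 2 of 8 expressed transcripts unscored, Cypt15 with 25.5 and 9.76 and Cypt14 with 8.13 and 3.36. In the cylicin, Actrt1 and Actrt2, and Cypt comparisons the unscored genes were the less abundant, and scored and unscored genes were at least 2-fold lower alike, with the 6 scored Cypt transcripts between -1.34 and -1.73.

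Abundant unscored X transcripts were mostly lower at 2-fold, 6 of 7 above a signal of 100 and 8 of 8 from 50 to 100. Of scored X transcripts, 73.3% and 61.5% were lower in these bins. Rp23-438h3.2 (X, 90428566 to 90429283) had 189 ± 11.1 and 39.5 ± 4.87, a change of -2.23. Gm5941 (X, 89735288 to 89736018) had 142 and 41.6, Gm15104 (X, 146747494 to 146747907) 107 and 30.4, and Gm6812 98.2 and 26.4, with changes of -1.75, -1.79 and -1.85. Tex13a, a testis-expressed X gene, had 50.5 and 14.9. Arl13a, a paralogue of the ciliary GTPase gene Arl13b, had 13.5 and 2.94, a change of -1.88. Asb9, for an ankyrin-repeat protein of ubiquitin ligases, had 76.8 and 33.2, a change of -1.18.

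Across the fixed list of Gm gene models, 176 of 413 expressed transcripts (42.6%) were unscored, and 71 of the 176 were lower and 0 higher, with a median of -0.82. The 237 scored Gm transcripts had a median of -0.02, with 37 lower and 6 higher. The 86 unscored transcripts with a Rik name had a median of -0.58, with 17 lower and 1 higher, and the 1699 scored ones 0.10, with 291 lower and 43 higher.

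Genes standing alone outside X included postmeiotic ones. Csnka2ip (chromosome 16, 64477637 to 64478960), for a partner of casein kinase 2, had 103 ± 6.53 and 25.1 ± 3.55, a change of -1.99. Rnf133 (chromosome 6, 23598869 to 23600305), a ring finger ubiquitin ligase gene of spermatids, had 127 ± 7.20 and 41.6 ± 4.52, a change of -1.59. Its neighbour Rnf148 (23603895 to 23605136) had 46.9 and 25.3, a change of -0.86, below 2-fold. The nearest scored transcript lay 741550 bp from Rnf133 and 736719 bp from Rnf148.

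Fscb (chromosome 12, 65572320 to 65575885), a calcium-binding protein of the fibrous sheath of the sperm tail, had 74.7 and 22.0, a change of -1.72. Izumo3 (chromosome 4, 91811009 to 91813925), an acrosome biogenesis gene of the Izumo family, had 38.9 and 14.7, a change of -1.35, and was the only gene of the acrosome and sperm surface list without a score, in 2 of its 46 expressed transcripts. Adam6a and Adam6b, sperm surface proteins, had 27.5 and 13.3, and 21.8 and 10.4, with changes of -0.99 and -1.01. Gm7168 and Prkcq, a protein kinase C gene, had changes of -1.89 and -1.87, from 16.0 to 3.59 and from 32.5 to 8.17. Klrb6, a lectin-like receptor gene of natural killer cells, had 65.2 ± 32.4 and 11.1 ± 13.2, a change of -2.45 with a spread over parts of the same order as the values. The plot of named genes holds none of the genes of this paragraph. Csnka2ip, Rnf133 and the H2A.L genes stood well apart between the libraries there.

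**Figure D5:**
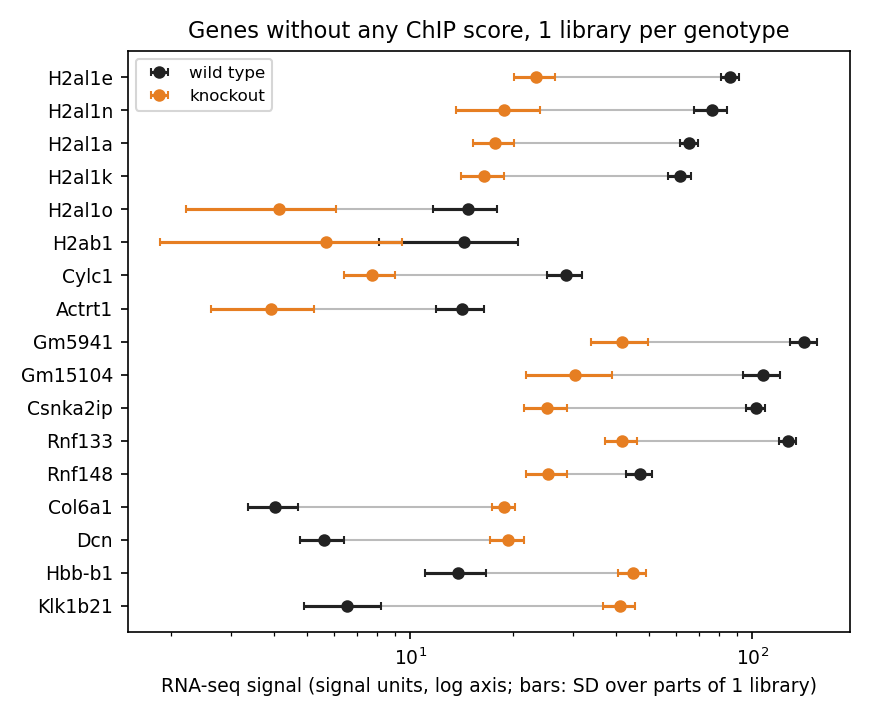
RNA signal of 17 genes without any ChIP score in the wild-type (black) and knockout (orange) library, on a log axis, with bars for the SD over parts of 1 library. The 13 genes from H2al1e to Rnf148 lie lower in the knockout, and Col6a1, Dcn, Hbb-b1 and Klk1b21 lie higher.

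Genes of stroma and secretion and the beta-globins were among the largest increases. Col6a1 (chromosome 10, 76171537 to 76188789), a collagen VI chain, had 4.02 ± 0.671 and 18.8 ± 1.48, a change of 1.98. Dcn, the matrix proteoglycan decorin, had 5.59 and 19.3, a change of 1.62. The beta-globin genes Hbb-b1 and Beta-s had 13.8 and 44.7, and 19.4 and 61.3, with changes of 1.63 and 1.61. The other unscored transcripts of the endothelium and blood list, both of the clotting factor gene Vwf, had changes of -0.44 and -0.15, and the 3 together had a median of -0.15. The water channel gene Aqp2 had 3.89 and 17.1, and the glandular kallikrein gene Klk1b21 had 6.54 and 41.0, a change of 2.48. These remained at least 2-fold higher after rescaling to a median change of 0, with Klk1b21 at 2.09, Col6a1 at 1.60, Aqp2 at 1.51, Dcn at 1.25, Hbb-b1 at 1.23 and Beta-s at 1.22.

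Scored genes of the matrix gave like changes, and scored kallikreins were split. Markers of matrix and blood summed higher in the knockout library, as given above. In the matrix list, 3 of 16 expressed transcripts were unscored, with a median of 1.62 and 2 higher, and the 13 scored ones had a median of 1.47 with 10 higher. Col1a2 had 4.71 and 25.8, with a Pol II promoter score of 93.5. Of 10 expressed scored transcripts of the kallikrein group, 2 were higher and 2 lower. In the same cluster as Klk1b21, Klk1b24 had 6.74 and 42.3 and Klk1b27 3.68 and 33.5, with distal Pol II scores of 432 and 40.5. Klk1b8 had 61.7 and 12.6, a change of -2.21, and Klk1b9 14.6 and 5.71, a change of -1.22. Nid1, for the basement membrane protein nidogen, had 3.22 and 7.90, a change of 1.08, and Mrc1, the mannose receptor of macrophages, 6.56 and 12.2, a change of 0.80. Isoforms of Col18a1 and Myh9 had changes of 1.48 and 1.39, and both genes had another transcript with a score.

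Several marker lists of testis cells held no unscored transcript, but these lists are small beside a share of 5.26%. None of the 27 expressed transcripts of the spermatogonia list, 51 of meiotic prophase, 35 of Sertoli cells, 26 of Leydig cells, 20 of peritubular cells and 126 of cytosolic ribosomal proteins was unscored, where 5.26% of all expressed transcripts were. Solute carriers had 2 of 357 and Zfp genes 13 of 360 (3.61%). Olfactory and vomeronasal receptors, chemosensory genes of which some are expressed in testis, had 12 of 23 expressed transcripts unscored, with a median change of -0.77 and 3 lower, or 6 lower after rescaling. Olfr128 stood highest among them with 6.62 and 2.36. Speer genes, testis genes in repeats of chromosome 5, had 4 of 16 with a median of -0.66 and none lower or higher, or 2 lower after rescaling, while Speer1-ps1 alone had 59.6 and 101, a change of 0.76. The neighbouring genes named Gm6460 and 4933402N22Rik had 40.1 and 55.3, and 41.6 and 62.0.

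The remaining lists were small or had few unscored transcripts, beside the 5.26% of all expressed transcripts. Immunoglobulin and T cell receptor genes had 0 of 4, cystatins 0 of 19, and Wfdc and Spink genes 0 of 13. Shares above that of all expressed transcripts stood in endothelium and blood (3 of 9, 33.3%, 1 higher), epididymis genes (2 of 7, 28.6%, none called), keratins (1 of 7, 14.3%), small nucleolar and related RNAs (11 of 86, 12.8%, none called) and beta-defensins (1 of 8, 12.5%). Shares below it stood in macrophage genes (1 of 21, 4.76%), serine proteases (1 of 44, Klk1b21) and Spata and Tex genes (1 of 89, Tex13a). The beta-defensin gene Defb11 had 5.91 and 14.5, a change of 1.17 that was 0.79 after rescaling. The keratin gene Krt6a had 1.47 and 0.35, and the epididymal ribonuclease-like gene Rnase10 had 1.36 and 1.58. Slc5a4b, a sugar transporter gene of the solute carriers, had 6.83 and 2.82, and Zfp353, the most abundant unscored Zfp gene, 5.34 and 1.99. 1700001F09Rik, the most abundant unscored gene with a Rik name, had 83.5 and 39.9, a change of -1.05.

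Some names were listed at several positions, as copies or as separate pieces of 1 gene. Of 87 such names, 49 had a score at another position, 3 of them on X, and 38 had none anywhere, 19 of them on X. The scored position lay on the same chromosome in 34 of the 49 and on another in 15. Where a score stood elsewhere, the median change was 0.23, and where none did, -0.48, with 14 of the 38 names lower and 3 higher. Of all expressed transcripts listed at several positions, 11.7% were lower and 5.50% higher, and of those on X 56.0% and 3.57%. These shares count transcripts, not names. As names without a score are more often on X, the medians do not compare like positions. The polyubiquitin gene Ubb had 2408 ± 50.7 and 2699 ± 96.1 at its unscored position on chromosome 14 (46703702 to 46704632), and 3148 and 3553 at its position on chromosome 11, where the Pol II promoter score was 1410. Gapdh, the glycolytic enzyme, had 29.2 and 69.9 at an unscored position on chromosome 11, and 86.1 and 204 at its gene on chromosome 6, where the Pol II promoter score was 666. The changes at both positions were 0.16 and 0.17 for Ubb, and 1.23 and 1.24 for Gapdh.

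Over the 49 names, the wild-type signals of both positions were within 2-fold of each other in 29 and over 5-fold apart in 7, and the changes were within 0.5 in 41 and over 1 apart in 4. Atpase6, a mitochondrial ATP synthase subunit, had 378 and 514 at chromosome 1 (24620810 to 24621651) and the identical values on the mitochondrial chromosome. Atp6v0c had 40.3 and 64.3 at its unscored position and 58.5 and 95.1 at its scored one, and Rmnd1 15.7 and 5.32 against 20.6 and 7.0. Plac9 and Fam177a had equal values at both positions. Among those far apart, Larp1b had 3.8 and 1.93 at its unscored position and 99.3 and 100.4 at its scored one, and Cdv3 had 5.85 and 10.3 at its unscored position and 32.5 and 13.1 at its scored one. Where positions share sequence, the RNA of the copy cannot be told apart from that of the other position. Dynlt1c, a dynein light chain gene of the t-complex region on chromosome 17 (6806388 to 6812617), had no scored position and had 139 ± 4.32 and 147 ± 5.07. Tcp10a, of the same chromosome, had 78.6 and 71.5 at its unscored position and 46.5 and 42.4 at a position with a Pol II promoter score of 40.2.

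Isoforms of scored genes had changes near those of their partners, while levels often differed. The 400 isoforms came from 282 names. Their wild-type signal had a median of 3.10, against 3.21 for the most abundant overlapping scored transcript of the same gene, and the median changes were 0.29 and 0.30. Signals were within 2-fold of each other in 255 pairs and over 5-fold apart in 29, and changes were within 0.5 in 377 and over 1 apart in 3. In 269 pairs the isoform lay inside the span of its partner. Overlapping transcripts can share reads, and the pseudocount shrinks changes at low signals. Close changes are therefore partly built into these pairs, and no like count over unpaired transcripts was made. Of the 400, 18 (4.50%) were lower and 10 (2.50%) higher. The background here is these 400 with 24621 scored transcripts of 200 bp or more not listed at several positions, 25021 in all. It is nearly all scored transcripts, whether or not they have another isoform, and 6.35% of it were lower and 4.61% higher. After rescaling, 40 (10.0%) were lower and 2 (0.50%) higher, where 10.6% and 0.416% of that background were. The scored partner had a Pol II promoter score in 286 pairs and a TAF7L promoter score in 196. The unscored isoform was shorter in 325 pairs and shared neither end with its partner in 202.

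Dnahc8, an axonemal dynein heavy chain of the sperm tail, gave the most abundant isoform (chromosome 17, 30940008 to 30950175) with 136 and 166, and 47.9 and 64.7 for its longer scored transcript. Spag16, an axoneme central apparatus gene, was the only unscored entry of the sperm tail list, with 34.7 and 36.6 where its scored transcript had 21.6 and 20.9. Isoforms of Ppp2r2b, a phosphatase regulatory subunit, and Chl1, a cell adhesion gene, had 24.1 and 5.08, and 24.5 and 6.18, with changes of -2.05 and -1.83, where their scored transcripts had -2.05 and -1.89.

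Short entries carried most of the signal. The 88 transcripts under 200 bp held 71.9% of the wild-type and 83.5% of the knockout signal of all unscored transcripts. They had medians of 82.1 and 159 and a median change of 0.82, with 38 (43.2%) higher and 14 (15.9%) lower, where 29.0% and 20.6% of all 751 expressed transcripts under 200 bp were. After rescaling, the median was 0.43, with 14 (15.9%) higher and 17 (19.3%) lower, where 16.1% and 25.6% were. The spread over parts reached the mean in 48 of the 88. Among the 40 others, 23 were higher and 4 lower. AK219219, a clone of 58 bp, stood highest, with 5656 ± 2937 and 15364 ± 7675 on chromosome 1 and like values on chromosomes 6 and 14. A cluster of 33 entries lay within chromosome 2, 151076619 to 151155701, with a median change of 1.34 and 22 higher. The 10 copies of a Snord116 small nucleolar RNA on chromosome 7 all had the same 2.69 and 1.77.

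MicroRNA hairpins made up 19 of the short entries, from 15 names. A microRNA is cut from such a hairpin and pairs with target messages through its seed, bases 2 to 8. These are polyadenylated RNA libraries, so the values are reads over the hairpin and not levels of the mature microRNA. The mature sequences of the most abundant names are shown with the seed in capitals, from RefSeq, and their seeds differ.
mmu-miR-680: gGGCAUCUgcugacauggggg
mmu-miR-703: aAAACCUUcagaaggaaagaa
mmu-miR-682: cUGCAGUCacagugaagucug

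Mir680-1 had 656 ± 300.4 and 312 ± 250, a change of -1.07. Mir703 had 286 ± 194 and 354 ± 279, Mir684-1 had 242 ± 109 and 535 ± 196, and Mir682 159 ± 171 and 153 ± 185. The spread over parts covers the difference in Mir680-1, Mir703 and Mir682. Of the 19, 7 were higher and 9 lower, where 18.3% and 40% of all 120 expressed hairpins were, and 4 of the 7 were listings of Mir684-1 with identical values. After rescaling, 0 were higher and 9 lower, where 2.50% and 45.8% were. In 13 of the 19 the spread reached the mean. Mir338, Mir181b-2, Mir493, Mir344d-3, Mir763 and Mir1941 were listed at 0 in the knockout, as were the clones DQ553872 and Z22845, and in each the wild-type spread was 8.00 times the mean, with Mir338 at 4.82 ± 38.6.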

How the data were processed

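Testis RNA of 2 genotypes and TAF7L, Pol II and IgG ChIP were sequenced, with 1 library per group. The deposited expression signal per transcript has no unit in the header, is on the scale of RPKM, and comes with a deposited standard deviation. Per the submitters' processing notes, Bowtie, TopHat and Cufflinks were used with mm9, with no versions given. The authors' own log2 values and their ratio of spread to signal, per the file headers, were not used as results. The deposited score of each transcript and class is undefined in the header, and the sources used here give no peak caller, distances or use of IgG. Depth per library is stated only as a range, the files hold no counts, and no interval is given.

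Tables were joined on transcript ID in Python 3.11 with pandas 2.3 and numpy 2.4. Changes use a pseudocount of 1, which understates low transcripts. Starts in the files count from 0 and are printed from 1. Strand is not in the files, so gaps between spans replaced the planned distances between starts. The counting script was tested on simulated data. Over names with 1 transcript each, spans of at least 200 bp and a spread below the mean, those named were the 10 most abundant, the 8 largest increases and decreases, and the most abundant of each gene list. The members and lists were chosen with earlier results of these data known. Other named genes, families, groups by position and the motif TGATGTCA were chosen after values were seen. Alternatives were other signal limits, score rules, pseudocounts, scalings and 1 transcript per gene.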

Additional observations from a re-analysis of the deposited data

How the results depend on the processing

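Of 47 alternative values, 26 moved beyond the set limit and 21 did not. The limit was a set ratio for counts, and an interval over transcripts for percents and medians. That interval treats transcripts as independent, which copies and isoforms are not, so staying within it is no test. The share on X, 16.0% as reported, was 15.2%, 16.4% and 17.7% at signal limits of 0.5, 2 and 5. With 1 transcript per gene name it was 14.8%. The number of unscored expressed transcripts was 600 at a signal limit of 5, 6599 when only both promoter scores had to be 0, 6157 when only the TAF7L scores did, and 484 when counted as genes with every transcript unscored. Their percent of expressed transcripts was 6.29 at a limit of 0.5, 4.66 at 2 and 4.21 at 5. The count at least 2-fold lower, 215 of 1428 as reported, was 351 and 375 with pseudocounts of 0.1 and 0.01. With 1 transcript per gene it was 121 of 819. The count higher, 89 of 1428 as reported, was 150 and 162 with those pseudocounts. It was 25 with the knockout rescaled to a median change of 0 and 38 rescaled to the wild-type total. Other choices of transcripts gave 137 of 1553 on the knockout signal, 58 of 600 at a limit of 5 and 51 of 1340 at spans of 200 bp or more. With 1 transcript per gene it was 38 of 819. Where the total differs, a moved count does not show a moved share. The median change, -0.03 as reported, turned positive when transcripts were chosen on the knockout signal (0.33) or on the mean of both signals (0.20). It was -0.31 and -0.26 under the 2 rescalings and -0.20 at a limit of 5. The median span, 19160 bp as reported, was 22587, 16391.5 and 10160.5 bp at limits of 0.5, 2 and 5. Beyond what these settings fix by construction, the cause was not tested. No paired analysis was possible because each group has 1 library, and no library could be left out.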
